A study of Mus musculus with 2 samples.

Results

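Among PECAM1-sorted mouse lung cells, 66 of 13815 called barcodes carried fibroblast RNA, and 51 of the 66 also carried endothelial RNA. A barcode tags the RNA of 1 droplet, and it was called when at least 1000 genes were detected, with no upper limit, and under 20% of its unique molecular identifiers (UMIs) came from mitochondrial genes. The members were chosen by the detection of stromal genes in these same counts: a barcode was taken as carrying fibroblast RNA when at least 4 of 7 stromal genes were detected, namely Col1a1, Col1a2, Col3a1, Dcn, Ogn, Mfap4 and Inmt. It was counted as also holding endothelial RNA when at least 2 of Cdh5, Cldn5 and Egfl7 were detected. The control library held 28 such barcodes of 7234 called and the metastatic library 38 of 6581.

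Both libraries came from the lungs of WT C57BL/6 mice, whose age the labels do not give. The control mice received PBS through the tail vein, and the mice of the metastatic group received 200,000 B16-F10 cells each, a mouse melanoma line stained beforehand with a green CellTracker dye. Lungs were taken after 6 h, minced and digested with collagenase, and PECAM1-stained cells were sorted into a 10x Genomics 3′ library. The cells of 2 mice were pooled for each treatment and each group held 1 library, so no difference between treatments could be tested, and the spread between mice was not measured. Every interval below is a 95% interval for counting error only. The sort selected on PECAM1 alone.

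Fibroblasts make and remodel the collagen and elastic matrix of the lung. Alveolar fibroblasts lie in the thin walls between air spaces, next to the capillaries, and adventitial fibroblasts lie in the cuffs around larger vessels and airways. Neither kind is usually counted among the cells that carry PECAM1, the adhesion protein of endothelial junctions, on its surface. In droplet data, fibroblast RNA on an endothelial barcode can come from cells captured together, from a droplet that held more than 1 cell, or from free RNA. These sources cannot be told apart from the counts alone.

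The control library summed to 67929614 UMIs over all barcodes and the metastatic library to 64733724. There were 16 barcodes called in both libraries, and 0 of the 66 were among them. All 66 had at least 1 UMI in the other library, with medians of 85 UMIs for the 28 control barcodes and 116 for the 38 metastatic ones and highest values of 385 and 389. These UMIs were not counted for the other called barcodes, so whether the 66 differ from them in this is not known. Of 8 melanoma genes, 1 was detected in the 66 barcodes. This was Gpnmb, with 3 UMIs in the control and 7 in the metastatic library, and the pigment cell genes Dct, Pmel, Mlana, Tyr and Tyrp1 were at 0.

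The fibroblast RNA barcodes made up 0.387% of the control library (exact Clopper-Pearson interval 0.257 to 0.559) and 0.577% of the metastatic library (0.409 to 0.792). The difference was 0.19 percentage points, with a Newcombe interval of -0.04 to 0.44 that spans 0. When every barcode was thinned to 2000 UMIs, so that depth no longer set how many genes were seen, 13 of 7125 control barcodes (0.182%) and 16 of 6474 metastatic barcodes (0.247%) still held 4 of the 7 genes. The metastatic share was the higher of the 2 both before and after thinning, by no more than counting error allows before it.

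The selecting genes encode collagens, other matrix proteins and an enzyme. Col1a1 and Col1a2 on chromosomes 11 (94936224 to 94953042) and 6 (4504814 to 4541544) encode the chains of type I collagen, and Col3a1 on chromosome 1 (45311538 to 45349706) encodes type III collagen. Dcn (chromosome 10, 97479609 to 97518143) encodes decorin and Ogn (chromosome 13, 49608046 to 49624501) encodes osteoglycin, both small proteoglycans that bind collagen fibrils. Mfap4 (chromosome 11, 61485431 to 61488900) encodes a microfibril protein of elastic fibers. Inmt (chromosome 6, 55170626 to 55175043, minus strand) encodes a methyltransferase of indole amines. The endothelial genes were Cdh5 (chromosome 8, 104101625 to 104144511), the vascular cadherin, Cldn5 (chromosome 16, 18776847 to 18778262), a tight junction claudin, and Egfl7 (chromosome 2, 26580014 to 26593120), a secreted endothelial protein. All 10 are protein-coding genes, placed here on GRCm38, the assembly also called mm10.

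Inmt was detected in 59 of the 66 barcodes, Ogn in 61, Col1a2 in 57, Col3a1 in 55, Col1a1 in 52 and Mfap4 in 49. Dcn, a common fibroblast marker, was detected in 20. Per barcode, Inmt ranged from 0 to 98 UMIs (median 4.5) in the control and from 0 to 117 (median 10.5) in the metastatic library. Ogn ranged from 0 to 37 (median 6) and from 0 to 48 (median 9). The medians were 2.5 and 6 UMIs for Col3a1 and 2 and 3 for Col1a1. The ranges of the 2 libraries overlapped for each of these genes. Since these genes selected the barcodes, their levels are a description and were not tested.

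Of the barcodes just inside the rule, 11 control and 13 metastatic barcodes held exactly 4 of the 7 genes, and 4 and 7 held all 7. Just outside it, 34 control and 25 metastatic barcodes held 3. The 30 fibroblast genes that the rule did not use had a median of 83 UMIs (range 36 to 131) in control barcodes with 4 selecting genes, 30 (4 to 121) with 3 and 4 with none. In the metastatic library these medians were 66 (16 to 234), 49 (5 to 129) and 3. The barcodes on either side of the threshold overlapped in these genes, so the number of 66 depends on where it was set.

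**Figure D1:**
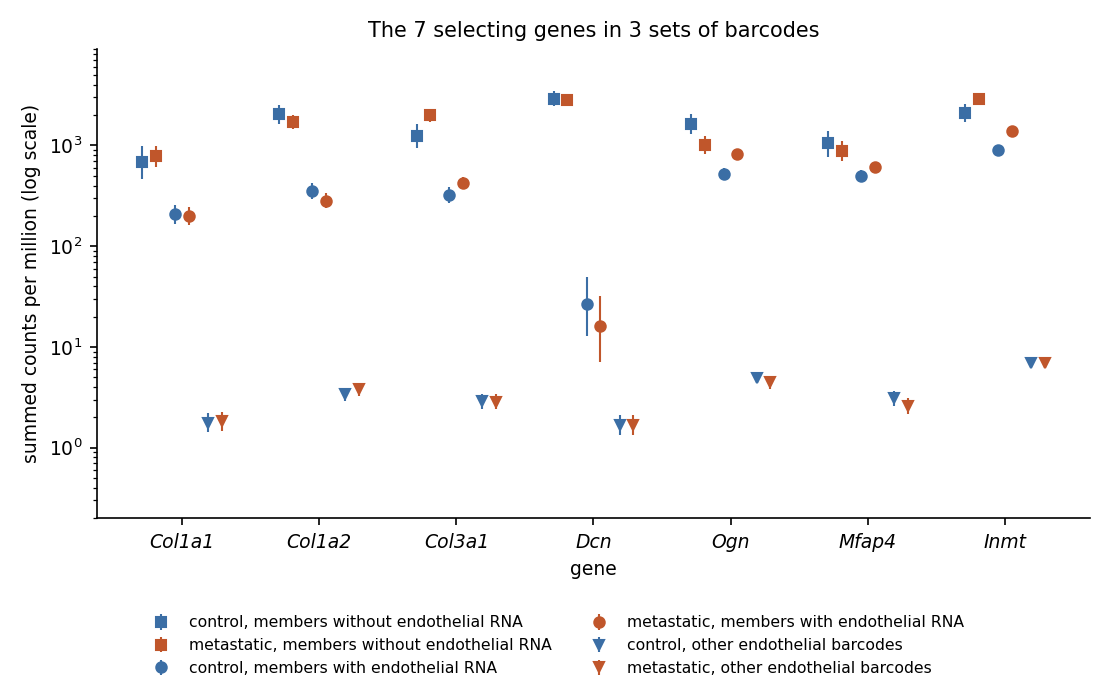
Summed level of each selecting gene, in counts per 1,000,000 UMIs (CPM) on a log scale, in members without endothelial RNA (squares), members with it (circles) and other endothelial barcodes (triangles) of the control (blue) and metastatic (orange) library, with 95% counting intervals. Dcn separates the squares, at 2912 and 2804, from the circles, at 26.6 and 16.3, more widely than any of the other 6 genes does.

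Endothelial RNA was present in 22 of 28 control barcodes (78.6%, exact interval 59.0 to 91.7) and in 29 of 38 metastatic barcodes (76.3%, 59.8 to 88.6). Among the other called barcodes of these endothelial sorts the share was 97.4% and 97.0%. Pecam1, the gene of the sorted protein (chromosome 11, 106654217 to 106750628, minus strand), was detected in 21 of 28 and 28 of 38 barcodes. In those without endothelial RNA it was detected in 1 of 6 and 0 of 9, so the labelled cell type, endothelial cell, had little or no transcript support in these 15. The share with endothelial RNA depended on depth. Of the barcodes that met the rule after thinning to 2000 UMIs, 5 of 13 control (38.5%, 13.9 to 68.4) and 7 of 16 metastatic (43.8%, 19.8 to 70.1) held endothelial RNA.

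The summed UMIs of 10 endothelial genes (Cdh5, Cldn5, Egfl7, Pecam1, Tie1, Tek, Esam, Robo4, Emcn and Ramp2) separated the barcodes with a gap that was seen only after the values were plotted. In the control library 8 barcodes had at most 4 such UMIs and the other 20 had at least 49. In the metastatic library 11 barcodes had at most 8 and the other 27 had at least 14. By the rule of 3 endothelial genes, 2 of the low barcodes in each library still counted as endothelial. The 19 barcodes with few endothelial UMIs held 78 to 2498 UMIs (median 527) of the 37 fibroblast genes, and the other 47 held 21 to 1186 (median 148). Relative to all RNA of the barcode these medians were 845 and 122 UMIs per 10,000.

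**Figure D2:**
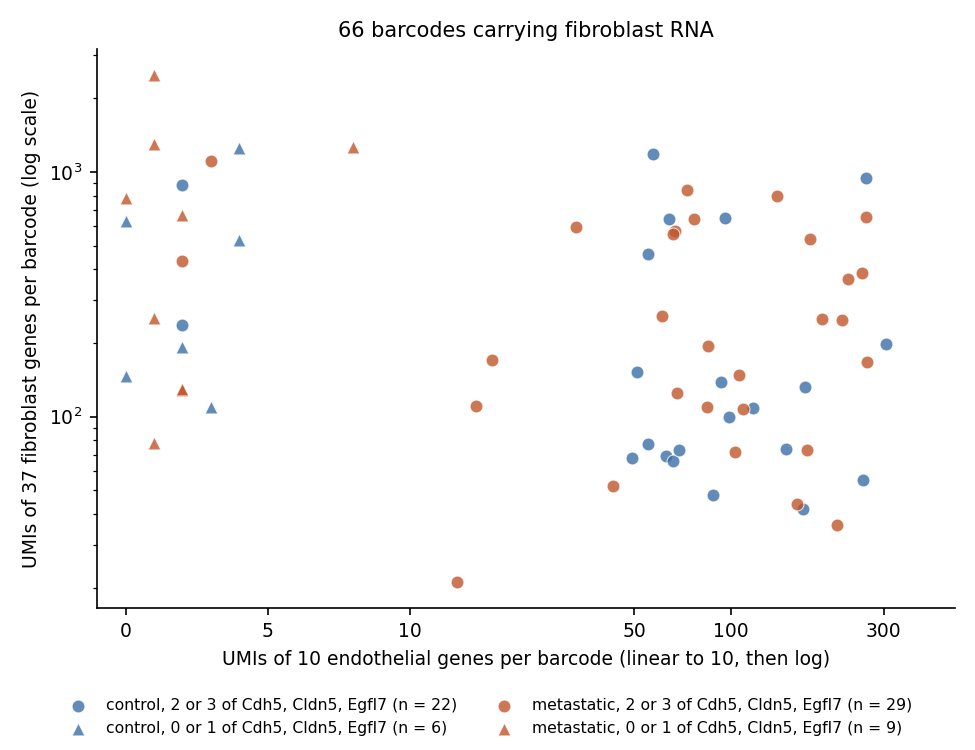
Each point is 1 of the 66 barcodes, placed by its UMIs of 10 endothelial genes (x axis, linear to 10 and log beyond) and of 37 fibroblast genes (y axis, log scale), with control in blue, metastatic in orange, and triangles for barcodes with 0 or 1 of Cdh5, Cldn5 and Egfl7. An empty stretch between 8 and 14 endothelial UMIs parts 19 barcodes on the left from 47 on the right, and fibroblast UMIs overlap across it.

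Barcodes with both kinds of RNA were deep. Their median was 14095.5 UMIs in the control library against 6342 in the other endothelial barcodes, a ratio of 2.22, and 15293 against 6595 in the metastatic library, a ratio of 2.32. The single barcodes ran from 2348 to 53060 UMIs in the control library. Their median number of detected genes was 1.57 and 1.70 times that of the other endothelial barcodes. More than 5000 genes were detected in 7 of 28 and 10 of 38 fibroblast RNA barcodes, against 1.29% and 1.60% of the others. The rule asks for detected genes and therefore favors deep barcodes, so the depth is not an independent result.

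The amount of endothelial RNA per barcode was closer between the sets than total depth. The median was 78.5 UMIs of the 10 endothelial genes in control barcodes with both kinds of RNA and 70 in the other control endothelial barcodes, and 85 against 71 in the metastatic library. As a share of the barcode's RNA it was 63.7 against 109 UMIs per 10,000 in the control (0.584 times) and 65.9 against 109 in the metastatic library (0.604 times). Over the barcodes with at least 14 endothelial UMIs alone, the median endothelial UMIs were 90.5 in the control and 103 in the metastatic library. A score for doublets, which compares each barcode with simulated sums of 2 barcodes, put 3 of 28 control and 2 of 38 metastatic fibroblast RNA barcodes among the highest scores, 10.7% and 5.26%. The share was 5.77% and 5.26% in the other called barcodes. The simulated sums drew called barcodes at random, and 6 of 7234 control and 9 of 6581 metastatic barcodes held fibroblast RNA without endothelial RNA. Few simulated sums could therefore pair such a barcode with an endothelial one, so the share marked says little about such pairs. What brought the 2 kinds of RNA together was not tested.

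Free RNA was read from barcodes with 11 to 50 UMIs, which hold no intact cell for the most part. In counts per 1,000,000 UMIs of a set of barcodes (CPM), Col1a1 stood there at 751 in the control and 626 in the metastatic library, Col1a2 at 687 and 586, and Col3a1 at 803 and 847. In endothelial barcodes with fibroblast RNA Col1a1 stood at 208 and 199 CPM, below these levels. Inmt showed the opposite order. It had 9.14 and 6.86 CPM at 11 to 50 UMIs per barcode, from 6 and 5 UMIs of the gene. In endothelial barcodes with fibroblast RNA it had 908 and 1404 CPM. Mfap4 (27.4 and 19.2 CPM at 11 to 50 UMIs) and Ogn (21.3 and 24.7) resembled Inmt, and Dcn stood at 161 and 140. The collagen genes that select these barcodes were therefore abundant outside called cells, whereas Inmt, Ogn and Mfap4 were not. Because these genes chose the barcodes, their levels there against free RNA were partly set by the rule. The source of the RNA was not tested.

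In the other endothelial barcodes the 7 genes stood between 1.67 and 6.98 CPM. A set of barcodes with lymphocyte markers was also read, from which barcodes that met the fibroblast or the endothelial rule had been left out. These 58 control and 57 metastatic barcodes had median depths of 4696.5 and 5057 UMIs. Their median of the 37 fibroblast genes, kept low in part by that choice, was 0 and 0.592 UMIs per 10,000. It was 112 and 152 in barcodes with both kinds of RNA, 589 and 833 in those without endothelial RNA, and 6.66 and 5.69 in the other endothelial barcodes.

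Genes other than the selecting ones gave the same barcodes a broad stromal profile. Of 12041 genes compared, 788 (6.54%) were at least 2-fold higher in the fibroblast RNA barcodes than in the other endothelial barcodes in both libraries. Of the 30 unused fibroblast markers, 27 passed this limit, as did 8 of 8 complement genes, 9 of 12 genes of retinoid and lipid handling, 25 of 36 non-collagen matrix genes, 11 of 20 collagen genes, 12 of 24 matrix enzymes and their inhibitors, 9 of 34 stromal signals and 9 of 21 receptors. The contrast is the one that chose the barcodes, so these counts describe what came with the selecting genes and nothing was tested on them. Among the 20 genes with the widest contrast, by the smaller of the log2 ratios in the 2 libraries, were Ms4a4d, Itga8, Col6a3, Fbln1, Dpep1, Scube2, Sod3, C7, Dcn, Abca8a, Mfap4, Pdgfra, Gsn, Serping1, Nox4, Gpc3, Inmt, Clec3b and Col1a1, and this ratio ran from 7.19 to 8.37 over the 20.

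Among structural matrix genes, Mgp, which encodes the calcification inhibitor matrix Gla protein, stood at 5451 and 7051 CPM in control and metastatic fibroblast RNA barcodes, against 89.4 and 85.2 CPM in the other endothelial barcodes. Per barcode it ranged from 0 to 470 UMIs (median 26) in the control and from 0 to 1293 (median 60.5) in the metastatic library. Gsn, which encodes the actin-severing protein gelsolin, was detected in 27 of 28 and 38 of 38 barcodes, with 4538 and 7919 CPM against 27.4 and 25.7. Bgn, the proteoglycan biglycan, stood at 784 and 955 CPM against 44.5 and 51.2. Col4a1, a basement membrane collagen chain that endothelium also makes, had by contrast 949 and 748 CPM against 912 and 926.

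Signals and receptors known from stroma were also present. Pdgfra, the receptor for platelet-derived growth factor A that marks lung fibroblasts, had 281 and 426 CPM against 1.69 and 1.33 CPM. Angpt1, the ligand of the endothelial receptor Tie2, had 190 and 219 CPM against 10.5 and 10.8. Vegfd, a ligand for lymphatic and vascular growth factor receptors, had 107 and 106 CPM against 5.04 and 4.80. Cxcl14, a chemokine, had 300 and 481 CPM against 3.05 and 3.69, and 1 metastatic barcode held 53.4% of its metastatic UMIs. Cxcl12, a chemokine that both stroma and endothelium make, had 247 and 264 CPM against 301 and 371 CPM.

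Complement and metabolic genes were part of the same profile. Serping1, the inhibitor of the C1 protease, was detected in 22 of 28 and 37 of 38 barcodes, with 516 and 752 CPM against 3.25 and 3.35. C3, the central complement component, had 302 and 238 CPM against 1.9 and 2.5. Aldh1a1, which makes retinoic acid, had 865 and 820 CPM against 11.9 and 11.5. Gpx3, a secreted glutathione peroxidase, had 1429 and 1498 CPM against 32.5 and 27.0, and Fmo2, a flavin monooxygenase of the lung, was detected in 28 of 28 and 37 of 38 barcodes.

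The alveolar fibroblast list showed 7 of 10 genes, and the adventitial list 6 of 12, at least 2-fold above the other endothelial barcodes in both libraries. Npnt, which encodes the matrix protein nephronectin and marks alveolar fibroblasts, was detected in 56 of the 66 barcodes. Pi16, a marker of adventitial fibroblasts, was detected in 4. Itga8, an integrin chain of the alveolar list, had 238 and 197 CPM in the fibroblast RNA barcodes against 0.746 and 0.600. Ly6c1 and Cd34 of the adventitial list are also endothelial genes and were lower than in the other endothelial barcodes. Macf1 of the alveolar list, a gene of the cytoskeleton, is also expressed there, at 511 and 509 CPM, and gave 442 of the 1257 control and 633 of the 2040 metastatic UMIs of that list in the fibroblast RNA barcodes.

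Dcn picked out 4 barcodes. Of its 407 UMIs in all 66 barcodes, 377 (92.6%) lay in 1 control barcode with 127 UMIs and 3 metastatic barcodes with 175, 61 and 14. The other 62 held 0 to 6, and 46 had none. None of the 4 held endothelial RNA by the 3-gene rule. Npnt was at 0 UMIs in all 4, against a median of 5 and a highest value of 55 in the others. Their UMIs of the adventitial list without Dcn, Ly6c1 and Cd34 were 60, 103, 11 and 16, in the order of the Dcn values just given, against a median of 5 (0 to 49) in the others. Their UMIs of the alveolar list were 11, 8, 1 and 1, and without Macf1 they were 7, 4, 0 and 0, against a median of 13 (0 to 145) in the others. The division at 14 Dcn UMIs was set after the values were seen and was not tested.

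In these 4 barcodes Gsn stood at 266, 670, 462 and 121 UMIs, and Pi16 at 7, 19, 0 and 1. Dpt, which encodes the matrix protein dermatopontin, stood at 15, 26, 6 and 1. In the other 62 barcodes the medians were 28 (0 to 422) for Gsn and 1 (0 to 14) for Dpt, so the ranges of both genes overlapped. The remaining 11 barcodes without endothelial RNA and all those with it had few or no Dcn UMIs, so the Dcn level of members without endothelial RNA in the plot of the selecting genes came mostly from these 4.

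**Figure D3:**
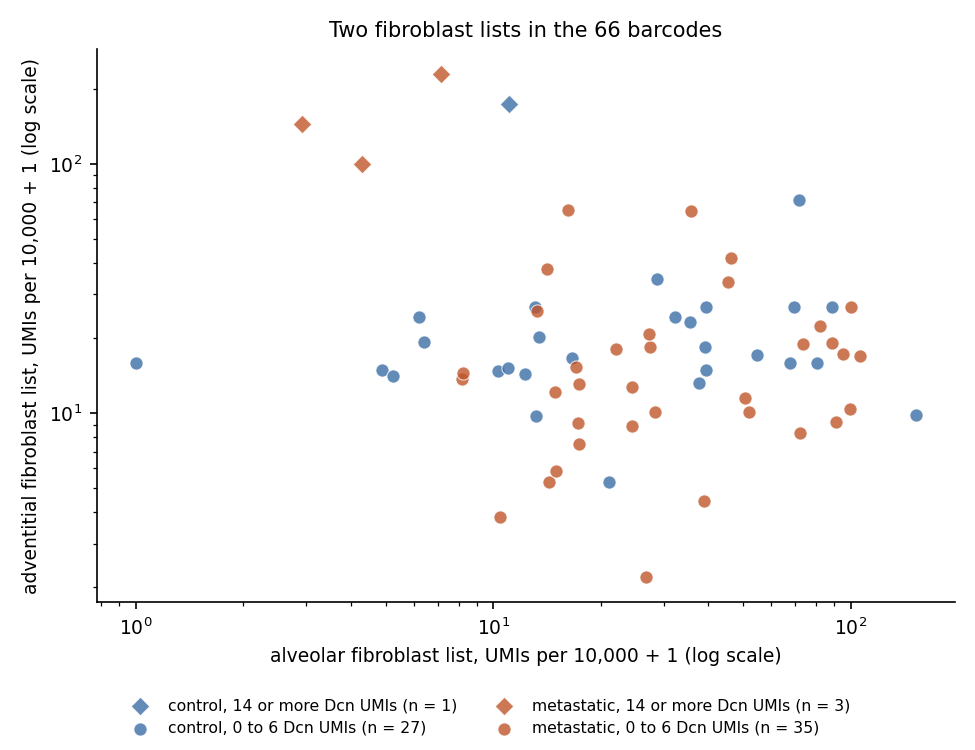
Each point is 1 of the 66 barcodes, placed by its UMIs per 10,000 of the alveolar list (x axis, which includes Macf1) and the adventitial list (y axis, which includes Dcn), both plus 1 on log scales, with control in blue, metastatic in orange and diamonds for barcodes with 14 or more Dcn UMIs. The 4 diamonds lie at the upper left and the remaining 62 barcodes spread mainly along the alveolar axis. Dcn, which chose the diamonds, gave 127 of 189, 175 of 296, 61 of 75 and 14 of 30 of their adventitial UMIs, so their height was partly set by that choice.

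Markers of further cell types were also found, some in 1 barcode and others in several. Of the 66 barcodes, 50 stayed below 1000 Sftpc, 20 pericyte, 90 smooth muscle, 100 macrophage and 20 T and NK cell UMIs. Of 8 epithelial genes, 3 or more were detected in 3 of 28 control and 3 of 38 metastatic barcodes. Sftpc, the surfactant protein C gene of type II alveolar cells, had 3903, 2832 and 1846 UMIs in 3 control barcodes and 2066 UMIs in 1 metastatic barcode, and at most 18 in any of the others. The same 4 barcodes held 625, 560, 233 and 233 UMIs of Lyz2, a lysozyme gene of myeloid and type II cells.

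Smooth muscle genes, 5 of 8 of which were at least 2-fold above the other endothelial barcodes in both libraries, reached 90 UMIs or more in 1 control barcode (279 UMIs) and in 6 metastatic barcodes (99 to 328). Pericyte genes, 6 of 10 by the same measure, reached 20 UMIs or more in 3 control barcodes (42 to 95) and 6 metastatic barcodes (27 to 97). One metastatic barcode held 231 of the 234 UMIs of Chil3, a gene of alveolar macrophages, with 14 UMIs of the leukocyte gene Ptprc and no endothelial RNA by the 3-gene rule. Another held all 21 UMIs of the T and NK cell genes. Platelet genes reached at most 37 UMIs. Of the mesothelial genes, Msln, Wt1 and Upk3b were at 0. Cycling genes had 0 and 4 UMIs.

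**Figure D4:**
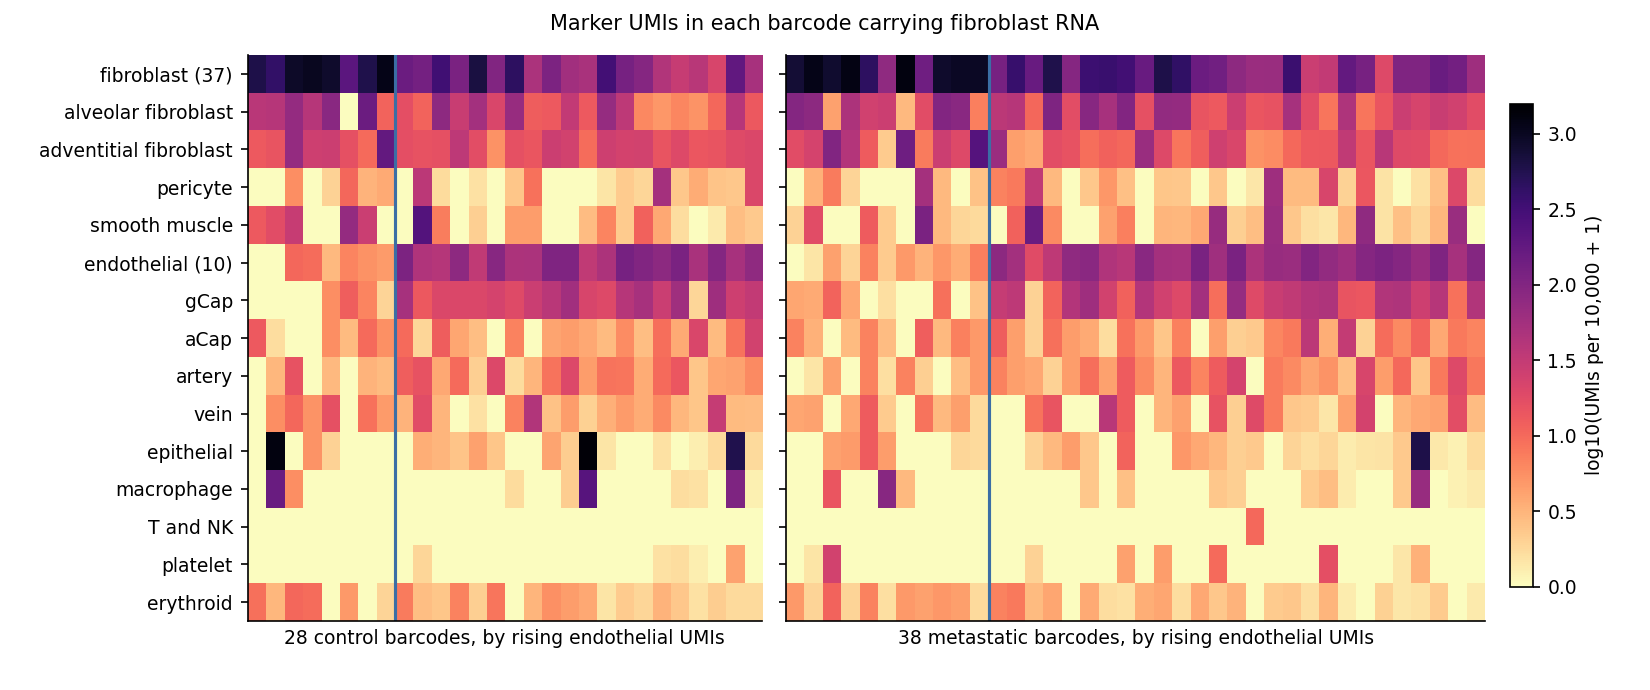
Marker UMIs of 15 gene lists (rows) in each of the 28 control and 38 metastatic barcodes (columns, ordered by endothelial UMIs), as log10 of UMIs per 10,000 plus 1, with darker color for higher values and a blue line between barcodes below and above the gap in endothelial UMIs. The epithelial row is dark in 3 control barcodes and 1 metastatic barcode, and the alveolar and adventitial rows are filled on both sides of the line.

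In barcodes with both kinds of RNA, the endothelial RNA itself was compared with that of the other endothelial barcodes through lists for vessel classes, per 1000 UMIs of the 10 endothelial genes. General capillary markers, such as Gpihbp1 and Kit, stood at 428 against 380 in the control (log2 ratio 0.17, interval 0.08 to 0.26) and at 386 against 389 in the metastatic library (-0.01). Vein markers, such as Vwf and Slc6a2, stood at 103 against 39.4 (1.38, 1.19 to 1.56) and at 108 against 42.9 (1.33). Artery markers, such as Gja5 and Sox17, stood at 82.9 against 60.2 (0.46, 0.25 to 0.66) and at 107 against 66.1 (0.70), and markers of aerocyte capillaries, such as Ednrb and Car4, at 123 against 141 (-0.19) and 110 against 110 (-0.01).

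The vein and artery ratios depended on a few genes and barcodes. Of the vein list, Nr2f2 had log2 ratios of 3.37 and 3.38, Vwf 0.64 and 1.07, and Slc6a2 1.38 and 0.48. Of the artery list, Adgrg6 had 2.32 and 2.96 and Sox17 0.24 and 0.34, while Gja5 had only 2 and 9 UMIs. The genes Tbx2, Gja5, Adgrg6, Thsd7a, Nr2f2, Dnm3 and Maf stood as high or higher in the fibroblast RNA barcodes without endothelial RNA as in the other endothelial barcodes. With these genes and the 1 barcode richest in each class left out, vein markers had log2 ratios of 0.24 (-0.08 to 0.55) and 0.57 (0.35 to 0.79). Artery markers then had 0.19 (-0.06 to 0.43) and 0.10 (-0.10 to 0.30), and aerocyte markers -0.67 and -0.55. The aerocyte ratio changed sign, to 0.49 in the control and 0.25 in the metastatic library, when 2 UMIs of each selecting gene were asked for. The general capillary list had the most UMIs in these barcodes, as it had in the other endothelial barcodes.

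The metastatic and the control fibroblast RNA barcodes were compared through UMIs summed over the members of each library. Of 1880 genes with at least 100 UMIs, 52 (2.77%) differed at least 2-fold, 21 (1.12%) higher and 31 (1.65%) lower in the metastatic library, and the median log2 ratio was 0.03. Of the 37 fibroblast genes, 28 had 100 UMIs. Their median log2 ratio was 0.17 per UMI of the barcodes and -0.21 per UMI of the fibroblast lists, so its sign depended on the scale. The second scale divides by the summed UMIs of the same 37 genes, so it is not an independent check. On the first scale 19 genes were above 0 and 9 below. Of these 28, 1 (Col5a2) was at least 2-fold higher and 0 were at least 2-fold lower. Summed, the 37 genes stood at 22035 and 28720 CPM in control and metastatic barcodes (log2 ratio 0.38, interval 0.35 to 0.42), and at 945 and 835 CPM in the other endothelial barcodes (-0.18). This sum is weighted toward genes with many UMIs, and Gsn alone gave 4538 and 7919 CPM of it. With each barcode weighted equally, Gsn had a log2 ratio of 1.01 and Mgp, another abundant gene of the sum, -0.11.

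Col5a2, a chain of type V collagen, had 25 and 78 UMIs, a log2 ratio of 1.17 (0.50 to 1.88), and was detected in 11 of 28 and 24 of 38 barcodes. Gsn had a log2 ratio of 0.80 (0.73 to 0.88), with medians per barcode of 25.5 and 46.5 UMIs and ranges of 0 to 293 and 2 to 670. Of the selecting genes, Col3a1 had 0.67, Inmt 0.66, Dcn 0.44, Ogn 0.40, Mfap4 0.24, Col1a1 0.17 and Col1a2 -0.08. The ratio of Dcn was 2.14 without the barcode richest in Dcn in each library. In the barcodes with endothelial RNA alone it was -0.71, from 10 control and 8 metastatic UMIs. With each barcode weighted equally, Mfap4 had -0.05 and Col1a1 -0.07, so their sign depended on the weighting. Col6a1 and Col6a2, chains of type VI collagen, had -0.52 and -0.59. The type I collagen chains were thus near 0 where Gsn, Col3a1 and Inmt were above it, and the UMIs per barcode of the 2 libraries overlapped for each of these genes.

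**Figure D5:**
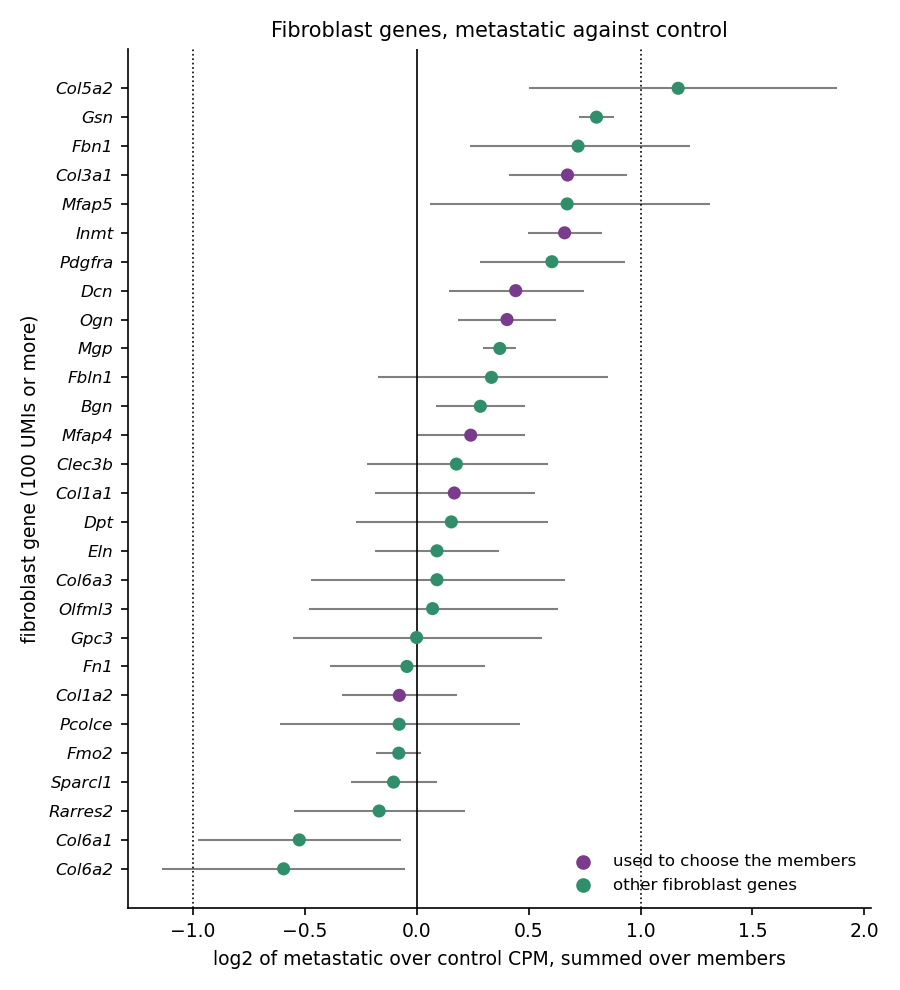
Log2 ratio of metastatic to control CPM, summed over the 38 and 28 barcodes, for the 28 fibroblast genes with at least 100 UMIs (points, purple for the genes that chose the barcodes), with 95% counting intervals (lines) and dotted lines at a 2-fold ratio. One gene, Col5a2, lies past a dotted line, and the points run down to -0.59 for Col6a2.

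Gene groups with roles in injury and stress had ratios on the same scale. Barcodes that also held endothelial RNA gave 375666 of the 420658 control and 492019 of the 584029 metastatic UMIs. The ratios of these groups therefore mix endothelial and fibroblast RNA and are not those of fibroblasts alone. Of the inflammatory list, 5 of 20 genes had 100 UMIs, and their median was 0.26, with 0 at a 2-fold difference. Vcam1, an adhesion molecule for leukocytes, had 0.62 (138 and 212 CPM), and 1.23 without the barcode richest in it in each library, since 1 control barcode held 30 of the 58 control UMIs. Nfkbia, the inhibitor of NF-κB, had -0.15. Cxcl1, a neutrophil chemokine, had 1 UMI in the control and 21 in the metastatic barcodes, Ccl2 had 0 and 2, and Il6 had 0 and 1. One metastatic barcode, which also held endothelial RNA, gave 11 of the 21 Cxcl1 UMIs. The complement list had a median of 0.31 over 5 genes, the non-collagen matrix list 0.28 over 21, the collagen list -0.08 over 9, the matrix enzyme list 0.14 over 7, the stromal signal list 0.25 over 6, the receptor list -0.24 over 7, the immediate early list -0.14 over 11 and the retinoid and lipid list 0.11 over 8. None of the 10 interferon genes reached 100 UMIs, and their sum had a ratio of 0.32, against 0.37 in the other endothelial barcodes.

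The glucocorticoid-responsive list was the lowest of these, with a median of -0.62 over 8 genes, 7 below 0 and 2, Zbtb16 and Mt2, at least 2-fold lower. Zbtb16, a transcription factor induced by glucocorticoids, had medians of 5 and 1 UMIs per barcode, ranges of 0 to 25 and 0 to 17, and a log2 ratio of -1.11 (-1.46 to -0.77). It had 444 and 178 CPM in the other endothelial barcodes. Fkbp5, a chaperone of the glucocorticoid receptor, had -1.0 and Tsc22d3, another glucocorticoid-induced gene, -0.52. The list also holds the metallothionein genes Mt1 (-0.72) and Mt2 (-1.01), which had 1.07 and 1.76 in the other endothelial barcodes. In the fibroblast RNA barcodes they had 0.33 and -0.01 with each barcode weighted equally, and -0.80 and -1.15 without the richest barcode in each library. The sum of the list had -0.45 in the fibroblast RNA barcodes and -0.42 in the other endothelial barcodes, so the sum, but not each gene, had the same sign in both.

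Timp3, an inhibitor of matrix proteases, had a ratio of 0.82, and 1 metastatic barcode held 233 of its 772 UMIs. Without the barcode richest in Timp3 in each library its ratio was 0.39. Vegfa, a growth factor for endothelium, had 28 and 89 UMIs and a ratio of 1.19, and stood at 126 and 226 CPM in the other endothelial barcodes. Tcf21, a transcription factor of lung fibroblasts with under 100 UMIs, was detected in 6 of 28 control and 22 of 38 metastatic barcodes, with 11 and 76 UMIs.

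Several of the widest ratios rested on 1 or a few barcodes that held RNA of another cell type. The 8 highest were Chil3 (6.40), Ccdc80 (2.61), Myl9 (2.29), Myh11 (2.08), Ccnd2 (1.99), Tpm2 (1.95), Hspa1a (1.67) and Ntn4 (1.67), of which Myl9, Myh11 and Tpm2 belong to the contractile apparatus of smooth muscle. A single metastatic barcode held 101 of the 136 Ccdc80 UMIs, and this was the barcode with 175 Dcn UMIs. Ccnd2 and Hspa1a were spread more widely, over 24 and 20 of the 38 metastatic barcodes. The 8 lowest were Car3, Cfd, Cyp2e1, Fabp4, Chil1 (-3.31), Napsa (-3.25), Sftpa1 (-3.24) and Sftpb (-3.12). Cfd, Car3 and Fabp4 are known from adipocytes, and 1 control barcode held all 700 Cfd UMIs, all 147 Car3 UMIs, all 259 Cyp2e1 UMIs and 207 of the 209 Fabp4 UMIs. Napsa, Sftpa1 and Sftpb are genes of type II cells, and epithelial UMIs were 9089 in the control and 2224 in the metastatic barcodes. With 1 library a group, the treatment and the capture of single barcodes of this kind cannot be told apart for these genes.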

How the data were processed

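Single-cell RNA was measured in 2 libraries (PBS control and metastatic), 1 per group, each of 2 pooled mice. The deposited values are raw UMI counts per gene and barcode that the authors made with Cell Ranger on mm10, without a cell filter. Per the file headers the version was 3.1.0. All 6794880 listed barcodes of each matrix were read, and 0 other columns of per-sample values were present.

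Members were chosen by the rule given above. The members and gene lists were chosen with earlier results of these data known. Counts were summed over members, non-members and barcodes with 11 to 50 UMIs and scaled to CPM (counts per 1,000,000 UMIs of the set). With 1 library per group no test across genes was run: sums have exact Poisson intervals, shares exact Clopper-Pearson intervals and ratios exact conditional binomial intervals at 95%. Ratios were read for genes with at least 100 UMIs, at a limit of 2-fold. UMIs of a 3′ kit were not divided by gene length.

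Named were the genes of the rule, the 2 to 6 genes of each list with the most UMIs or widest ratio, the 20 genes with the widest contrast to other endothelial barcodes and the 8 highest and 8 lowest ratios between libraries. One gene that this rule names is not reported here. Other genes and single barcodes were named after their values were seen, among them Tcf21, Cxcl1, Ccl2, Il6 and Ptprc. Doublets were not removed. They were scored against simulated doublets (share 0.25, 2000 genes, 30 components), and leaving out the highest scores (0.8% per 1000 cells, 419 and 346 barcodes) was an alternative. Other alternatives changed the thresholds of the rule, thinned the counts, changed the scale (median of ratios, or per UMI of the fibroblast lists) or left out single barcodes. Tools were Python 3.11.15, numpy 2.4.6, scipy 1.17.1, pandas 2.3.3 and scikit-learn 1.9.0. The ratio code was tested on simulated data.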

Additional observations from a re-analysis of the deposited data

Results flagged for a closer look

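For 20 genes the counting intervals of the log2 ratio of metastatic to control CPM lay on opposite sides of 0 in the fibroblast RNA barcodes and in the other endothelial barcodes. The difference between the sets was not tested, since each group held 1 library. Mt1 and Mt2, the metallothionein genes, had -0.72 and -1.01 in the fibroblast RNA barcodes and 1.07 and 1.76 in the other endothelial barcodes. Mt1 stood at 1393 and 844 CPM in the former and at 34.6 and 72.6 in the latter, and Mt2 at 423 and 211 against 5.43 and 18.4. One control barcode held 198 of 586 Mt1 UMIs and 1 metastatic barcode 164 of 493. Without the richest barcode in each library the ratios of Mt1 and Mt2 were -0.80 and -1.15. With each barcode weighted equally they were 0.33 and -0.01, so they depended on the weighting.

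Of matrix genes, Timp3 had 0.82 and -0.28, Ltbp4, a binding protein of latent TGF-β, 0.73 and -0.16, Mgp 0.37 and -0.07, and Col4a1 -0.34 and 0.02. The ratio of Mgp was -0.11 with each barcode weighted equally, and that of Timp3 0.39 without the richest barcode in each library. Of immediate early genes, Dusp1 had 0.38 and -0.03, Ier2 -0.52 and 0.08, Egr1 -0.24 and 0.02, and Jun -0.14 and 0.02.

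The smooth muscle genes Acta2 and Myh11 had 1.24 and 2.08, and -0.43 and -0.69 in the other endothelial barcodes. Acta2 was detected in 6 of 28 and 6 of 38 barcodes, and its ratio was 2.84 without the richest barcode in each library and 0.77 with equal weights. That of Myh11 was 0.88 with equal weights. The type II cell genes Sftpc, Sftpb, Sftpa1 and Napsa had -2.50, -3.12, -3.24 and -3.25, and 0.17, 0.29, 0.17 and 0.37 in the other endothelial barcodes. Without the barcodes that held 3 or more epithelial genes, Sftpc had 0.45 and Sftpb 0.35, the sign of the other endothelial barcodes. Fabp4 had -4.27 and 0.52, and 1.76 without the richest barcode in each library. Cfd, Cyp2e1 and Car3 were at 0 UMIs in the metastatic fibroblast RNA barcodes. Against a floor of 3 counts for the whole set they were at least 324-fold, 120-fold and 68-fold lower there, log2 bounds of -8.34, -6.91 and -6.09.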

How the results depend on the processing

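The differences between libraries in the share of members and in the share with endothelial RNA stayed within counting error of their main values under every alternative run. The shares themselves did not: the control share of members was 0.182% after thinning, and the shares with endothelial RNA then were 38.5% and 43.8%. The depth ratios ran from 1.61 to 2.74. In all, 152 of the alternative values stayed, 43 moved and 3 reversed, and none of the alternatives was left out. The median of the fibroblast genes was 0.54 with at least 3 selecting genes and -0.21 per UMI of the fibroblast lists. The 52 genes at a 2-fold ratio became 33 without barcodes over 5000 genes, 132 at a minimum of 50 UMIs and 21 at 200. General capillary markers were 0.052 and 0.033 (control, at least 3 genes; at least 2 UMIs a gene) and 0.12 (metastatic, at most 5000 genes). Aerocyte markers in the control turned to 0.037, 0.11 and 0.49 with at least 3 genes, at least 5 genes and at least 2 UMIs a gene. They were -1.36 with at most 5000 genes, -0.41 without the highest doublet scores, -0.55 without the richest barcode and -0.67 when genes were also dropped. In the metastatic library they were 0.25 (2 UMIs), -0.35 (richest barcode) and -0.55 (both). Artery markers were 0.75 (5000 genes) and 0.19 (both) in the control, and 0.50 (3 genes), 0.35 (genes dropped), 0.38 (richest barcode) and 0.10 (both) in the metastatic library. Vein markers in the control were 0.86 (3 genes), 0.36 (5 genes), 0.22 (2 UMIs), 1.66 (5000 genes), 1.17 (doublet scores), 0.91 (genes dropped), 0.97 (richest barcode) and 0.24 (both), and in the metastatic library 0.96 (3 genes), 1.48 (2 UMIs), 0.87 (genes dropped), 1.07 (richest barcode) and 0.57 (both). Of the lymphatic list, Lyve1 gave 683 of 745 control and 968 of 1015 metastatic UMIs in barcodes with both kinds of RNA. Lyve1 stood at 2297 CPM in the other endothelial barcodes. Prox1 and Reln were at 0 in both libraries and Mmrn1 at 1 and 0 UMIs, so the list ratios rest mostly on Lyve1. Lymphatic markers, with main ratios of 0.41 and 0.65, were 0.13 (5 genes), 0.15 (2 UMIs), 0.94 (5000 genes), 0.28 (richest barcode) and 0.18 (both) in the control, and 0.37 (3 genes), 0.34 (5000 genes), 0.51 (richest barcode) and 0.46 (both) in the metastatic library. The cause was not tested. Leaving out barcodes or genes was chosen after seeing the data, as was equal weighting. No paired analysis was possible because each group held 1 library. With 66 barcodes, depth limits the ratios to genes with many UMIs.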

Other observations

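Barcodes with at least 300 but under 1000 detected genes were not called. Of 2267 such barcodes in the control library 10 (0.441%) held at least 4 of the 7 selecting genes, and 0 of the 10 held endothelial RNA. In the metastatic library 7 of 2565 (0.273%) did, 2 of them with endothelial RNA, and the median depth of these barcodes was 837 and 1229 UMIs. Slc6a2, the noradrenaline transporter gene of the vein list, had 35 and 26 UMIs in 2 control fibroblast RNA barcodes and 27 and 20 in 2 metastatic ones, of 62 and 48 in all those with endothelial RNA.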
